A study of Mus musculus with 2 samples.

Results

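The Toll-like receptor genes Tlr1 to Tlr9 and Myd88, which encodes the adaptor protein that most of these receptors share, were examined in mouse LKS+ cells given extracellular vesicles (EVs). They were chosen by name, as the receptor family and its adaptor, and every probe of the arrays that carried one of these gene symbols was taken, which gave 15 probes for 10 genes among 22911 named genes. LKS+ cells are the lineage-negative, c-kit+, Sca-1+ fraction of bone marrow (BM), which holds hematopoietic stem and progenitor cells (HSPCs). Cells of WT mice were first expanded in S-Clone SF-03, a medium without serum, with BSA, SCF, IL-6 and IL-3, and were then co-cultured for 24 h with 150 μg/ml of EVs prepared from spleen (SP). In the control EV group the SP came from normal mice. In the CML EV group it came from mice with chronic myeloid leukemia (CML), a model made by transplanting HSPCs that carry BCR-ABL in a retrovirus. The methods state that the CML donors of EVs were irradiated, which the sample labels do not mention, and control donors are not described as irradiated. What leukemia did and what irradiation did cannot be told apart. The methods describe WT mice as males of the BALB/c or C57BL/6J strain, aged 6 to 8 weeks, and which strain gave these particular cells was not given in the sources used here.

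Toll-like receptors (TLRs) recognize conserved molecules of microbes and some molecules released by damaged cells. TLR1, TLR2, TLR4, TLR5 and TLR6 sit mainly at the cell surface and bind lipoproteins, lipopolysaccharide or flagellin, whereas TLR3, TLR7, TLR8 and TLR9 sit in endosomes and bind nucleic acids. On ligand binding, all of them except TLR3 recruit MYD88, which assembles IRAK kinases and TRAF6 and leads to NF-kB and IRF activation, while TLR3 signals through TICAM1. HSPCs are known to carry several TLRs, and stimulation of these receptors is known to favor myeloid differentiation.

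Each of the cultures was profiled on a one-color Agilent array of mouse genes, 2 arrays in all. No replicate check existed for any difference, no p-value was computed, and the values describe these 2 cultures. Of 59305 spots that were not controls, 54.4% were well above background with control EVs and 53.3% with CML EVs, and none was saturated. Signals are scanner intensities after scaling, by which the mean signal of an array became 2500 without its upper and lower 2%, and ratios are CML EV over control EV on the log2 scale. The only measured spread was that between repeated spots of a probe. For spots at the same position of both arrays the SD of the log2 ratio was 0.034 in 272 probes whose log2 signal reached 8 and 0.15 in 9 dimmer ones. The scanner software adds an error to each spot that was near 10.0% of the signal for most genes, or 0.20 for a log2 ratio. Neither value covers the spread between cultures or EV preparations. The number of arrays therefore limits the precision.

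Kit and Ly6a (the gene of Sca-1), which define the LKS+ label, were well above background on both arrays, as was Cd34, another gene of progenitor cells. Kit had 1646 in the control EV culture and 1529 in the CML EV culture, and Ly6a had 1548 and 1985. Genes of more mature myeloid cells were also bright in both cultures. All 9 neutrophil genes with a probe and 9 of 10 monocyte and macrophage genes were well above background, beside 58.5% of all named genes. In such bulk cultures, fewer cells of a type and less RNA per cell cannot be told apart.

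Promoter sequences are shown for 4 genes that the results turn on and whose windows held a motif: Tlr6, with the largest ratio, Tlr9, with the lower signal, Tlr2 and the adaptor Myd88. Tlr6 had 2 windows, and the one with the motif is shown. RefSeq promoters of the mouse assembly GRCm38.p6 were matched for 8 of the 10 genes, with 10 windows of 200 bases that end just before the transcript start. Tlr4 and Tlr7 had no entry. Motifs searched on both strands were GAAANNGAA, the core of sites bound by IRF proteins, GAGGAAG, a form of the site bound by the myeloid factor Spi1, and the NF-kB motif. Capitals mark the matches, and positions count back from the transcript start.
Tlr2 (chr3:83841609-83841808, minus strand, NF-kB motif in capitals): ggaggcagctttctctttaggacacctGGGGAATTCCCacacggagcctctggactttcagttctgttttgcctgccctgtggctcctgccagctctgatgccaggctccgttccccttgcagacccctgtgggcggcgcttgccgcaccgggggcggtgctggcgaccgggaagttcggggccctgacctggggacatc
Tlr6 (chr5:64959167-64959366, minus strand, GAAANNGAA on the opposite strand in capitals): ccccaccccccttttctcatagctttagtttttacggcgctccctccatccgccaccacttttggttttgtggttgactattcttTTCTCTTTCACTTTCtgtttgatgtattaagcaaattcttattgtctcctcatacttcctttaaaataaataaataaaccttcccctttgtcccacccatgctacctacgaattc
Tlr9 (chr9:106222398-106222597, plus strand, GAGGAAG in capitals): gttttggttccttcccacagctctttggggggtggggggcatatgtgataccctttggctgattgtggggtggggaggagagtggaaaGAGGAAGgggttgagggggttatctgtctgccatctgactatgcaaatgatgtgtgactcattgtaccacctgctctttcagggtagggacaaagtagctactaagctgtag
Myd88 (chr9:119340019-119340218, minus strand, GAAANNGAA in capitals): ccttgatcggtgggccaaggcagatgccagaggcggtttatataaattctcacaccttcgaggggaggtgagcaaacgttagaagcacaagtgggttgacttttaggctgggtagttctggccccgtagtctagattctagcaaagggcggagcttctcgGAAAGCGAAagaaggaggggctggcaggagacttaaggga
In Tlr2 the NF-kB matches overlapped and ran from -173 to -163. In Tlr6 both GAAANNGAA matches overlapped, from -115 to -101, and the other Tlr6 window held none of the motifs. The Tlr9 match lay from -112 to -106 and the Myd88 match from -40 to -32. Among the remaining members, 1 of 2 Tlr1 windows held GAGGAAG and the Tlr8 window held GAAANNGAA. Over all 32851 promoters of this length, 5.57% held GAAANNGAA, 8.84% held GAGGAAG and 6.07% held the NF-kB motif. A match is a string of letters in a window and was not tested as a site.

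Tlr1, Tlr2, Tlr4, Tlr6, Tlr7, Tlr9 and Myd88 were well above background on both arrays, which is 7 of 10 genes and 10 of 15 probes. Over all named genes the share was 58.5%, so that with 10 genes the count of 7 is near the background. Tlr3, Tlr5 and Tlr8 were not well above background on either array. Of the 7 measured genes, 6 had a higher signal with CML EVs and Tlr9 had a lower one, while 52.0% of the 13412 genes well above background on both arrays were higher with CML EVs. The median log2 ratio of the 7 was 0.19, or 1.14-fold, beside 0.01 over all genes, and their ratios ran from -0.10 to 0.37. None of the 7 reached 1.5-fold in either direction. Over all genes 1.52% were at least 1.5-fold higher and 1.18% at least 1.5-fold lower. With 7 genes a count of 0 is near this background.

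**Figure D1:**
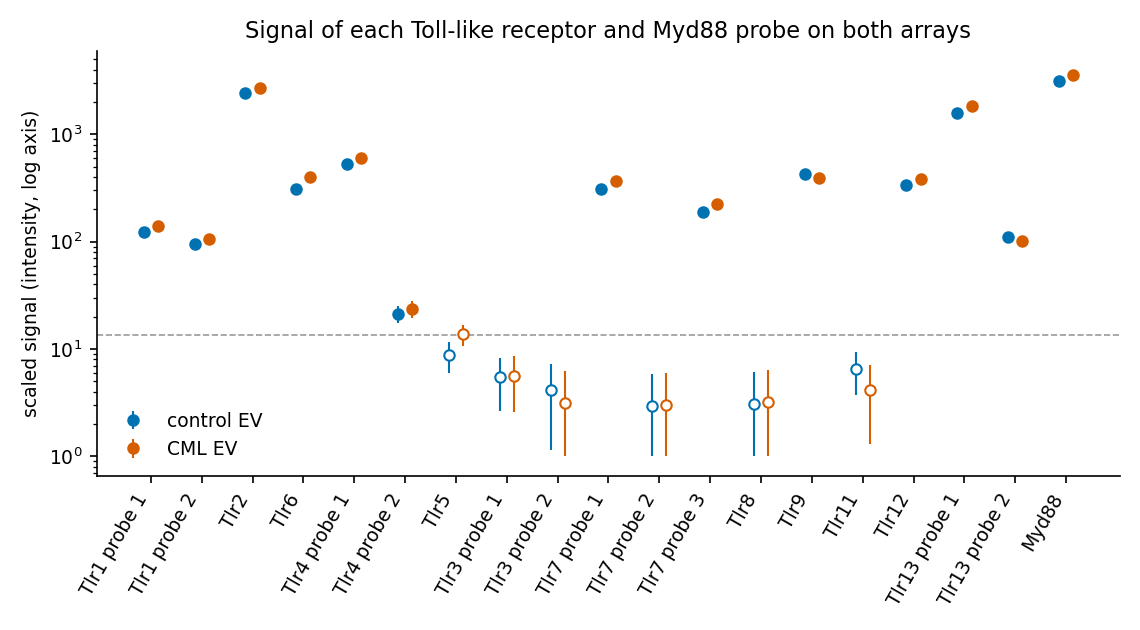
Scaled signal (intensity, log axis) of each probe of the Toll-like receptors and Myd88, with control EV in blue and CML EV in orange; bars are the scanner software's spot error, cut at 1 at the lower end, filled points are well above background and open points are not, and the dashed line is the lowest signal well above background with CML EVs, 13.6. The probes of Tlr3, Tlr5, Tlr8 and Tlr11 and 1 probe of Tlr7 are open on both arrays, and levels of different probes are not comparable with each other.

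Among the surface receptors, Tlr2 and its partners Tlr1 and Tlr6 were all measured. TLR2 pairs with TLR1 to bind triacylated lipopeptides and with TLR6 to bind diacylated ones. Tlr6 showed 312 ± 31.3 (spot error) with control EVs and 403 ± 40.4 with CML EVs. The log2 ratio of 0.37, or 1.29-fold, was the largest of the members and lay at the 96.1 percentile of all genes measured. Tlr6 was the 1 member at least 25% higher, beside 5.01% of all genes, and no member was at least 20% lower, the same fold, beside 5.25%.

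Tlr2 had 2411 ± 241 with control EVs and 2694 ± 269 with CML EVs, a log2 ratio of 0.16 at the 85.9 percentile. Tlr1 had 123 ± 12.8 and 141 ± 14.5, a log2 ratio of 0.19. A second Tlr1 probe gave 96.1 and 107, with a log2 ratio of 0.15. Both receptors were therefore higher with CML EVs by 1.12-fold and 1.14-fold, less than their spot errors on the log2 scale of 0.20 and 0.21.

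Tlr4, the receptor for lipopolysaccharide, had 531 ± 53.2 with control EVs and 605 ± 60.6 with CML EVs. This is a log2 ratio of 0.19, and a second and much dimmer probe gave 21.3 and 23.7, a log2 ratio of 0.15 with an error of 0.37. The value of Tlr4 changed when the signals were not those processed by the scanner software. From the median spot signal minus local background, with no detrending across the array, the log2 ratio was 0.06, and with normexp background correction it was also 0.06. The cause was not tested. Tlr5, the flagellin receptor, had 8.76 and 13.8, neither well above background, so that no ratio is given for it.

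Among the endosomal receptors, Tlr7 and Tlr9 were measured and Tlr3 and Tlr8 were not. TLR7 binds single-stranded RNA. Tlr7 had 310 ± 31.2 with control EVs and 364 ± 36.5 with CML EVs, a log2 ratio of 0.23 or 1.17-fold, at the 91.4 percentile. Another probe for the same transcript gave 190 and 225, a log2 ratio of 0.25. A further probe, designed on a different Tlr7 transcript, had 2.93 and 3.01 and was not well above background. Both Tlr7 probes well above background were thus higher with CML EVs.

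TLR9 binds DNA with unmethylated CpG motifs. Tlr9 was the 1 measured member with a lower signal with CML EVs, at 423 ± 42.4 with control EVs and 394 ± 39.5 with CML EVs. Its log2 ratio of -0.10, or 1.07-fold lower, lay at the 22.6 percentile of all genes and within its spot error of 0.20. The size of this difference moved with the processing, from -0.03 when the arrays were scaled to their medians to -0.18 with no detrending. Tlr3, the receptor for double-stranded RNA, had 5.47 and 5.58 on 1 probe and 4.18 and 3.14 on the other. Tlr8, which like TLR7 belongs to the receptors for single-stranded RNA, had 3.07 and 3.19. These signals lay below the lowest ones called well above background, which were 12.9 with control EVs and 13.6 with CML EVs.

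Myd88 showed 3129 ± 313 with control EVs and 3601 ± 360 with CML EVs. The log2 ratio was 0.20, or 1.15-fold, at the 89.7 percentile and just below its spot error of 0.20. By the criterion of a ratio larger than the propagated spot error, Tlr6 and Tlr7 were higher and no member was lower. Over all genes, 9.33% were higher and 9.42% lower by this criterion. The 3 members with several probes well above background, Tlr1, Tlr4 and Tlr7, had probes whose log2 ratios differed by at most 0.04, while over 4913 genes with several such probes the median gap was 0.12 and the 95th percentile 0.51.

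**Figure D2:**
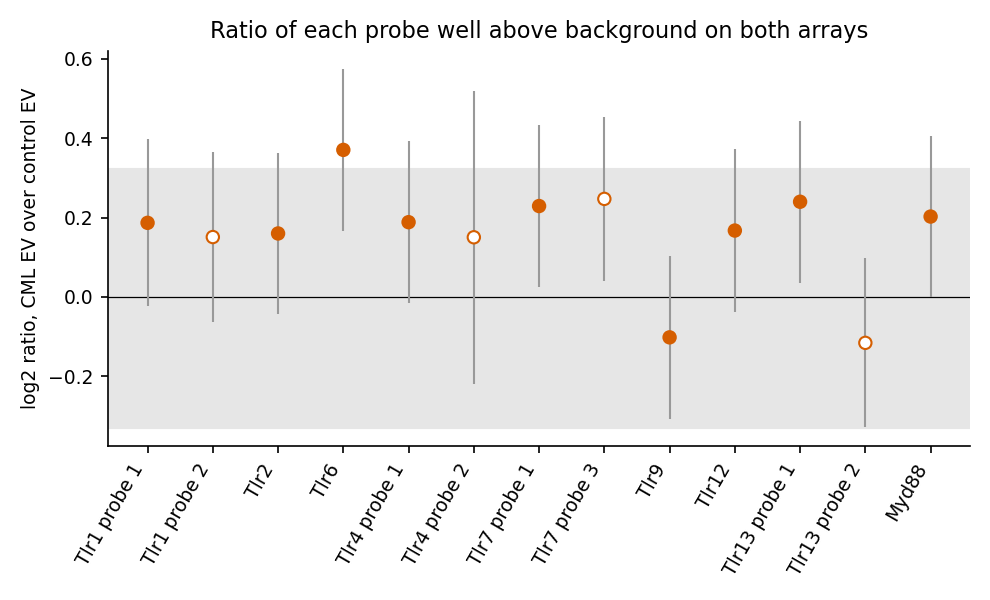
Log2 ratio, CML EV over control EV, of each Toll-like receptor and Myd88 probe well above background on both arrays, with bars for the propagated spot error; filled points are the probes used for a gene, open points its other probes, and the grey band spans the 5th to 95th percentile of all genes, -0.33 to 0.32. Tlr6 at 0.37 lies above the band, and Tlr9 and the second Tlr13 probe lie below 0.

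**Figure D3:**
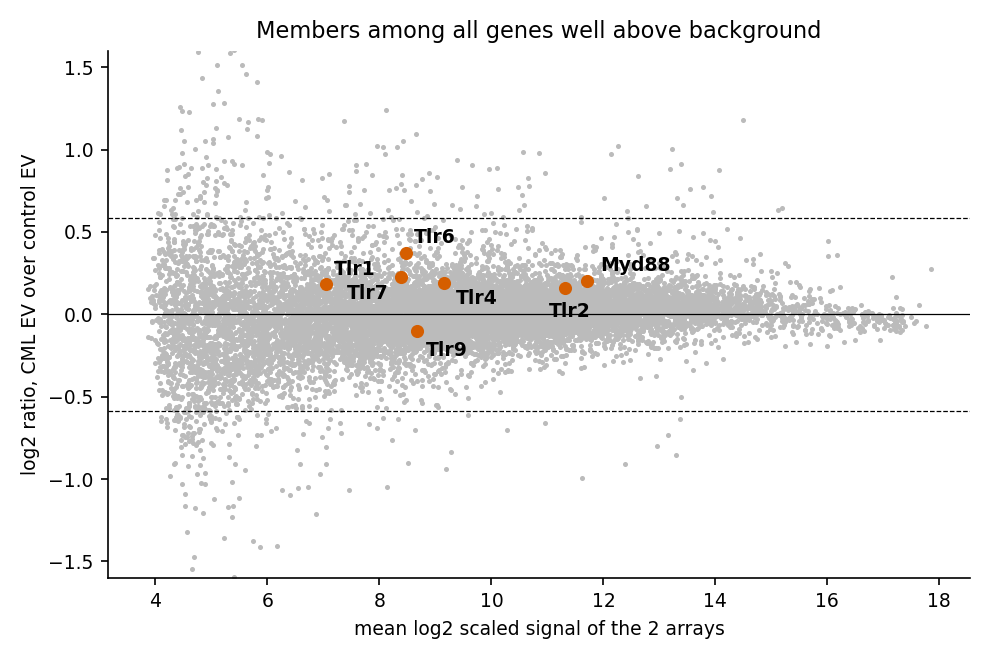
Log2 ratio, CML EV over control EV, against the mean log2 scaled signal for 13412 genes, those well above background in both cultures (grey, 18 of them beyond the axis), with the 7 measured members in orange and dashed lines at 1.5-fold. All 7 lie between the dashed lines and 6 of 7 lie above 0, with 5 below and 2 above the median signal of these genes, 702, on both arrays.

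Markers of other cells differed between the same cultures and stand beside these ratios. Of 10 stem and progenitor genes, 9 were lower with CML EVs and only Ly6a was higher, with a median log2 ratio of -0.14 and summed signals of 39023 with control EVs and of 35404 with CML EVs. Slamf1 had a log2 ratio of -0.37. Of 9 measured neutrophil genes, 7 were higher, with a median of 0.36 and a summed signal of 332539 and 437978, of which Mpo, the gene of myeloperoxidase, gave 213990 and 258638. Elane, which encodes neutrophil elastase, had 15311 and 34735, or 2.27-fold, and the granule protein genes Ltf and Ngp had log2 ratios of 0.91 and 0.88.

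The monocyte and macrophage list was mixed, with 5 genes higher and 4 lower, a median of 0.02 and a summed signal of 46210 and 63534 that was led by Ly6c2 at 30081 and 47021. Its member Mrc1 had a log2 ratio of -0.34 and Fcgr1 of 0.32, and C1qa was not well above background. Of 8 dendritic cell genes 4 were measured, with a median of 0.02 and sums of 26226 and 26114, almost all of it from Siglech at 25926 and 25815. This Siglech signal came from 1 probe, and its other probe was not well above background on either array. The log2 ratios of the 4 measured genes ran from -0.02 for Itgax through 0.04 for Clec9a to 0.06 for Ccr9. Another Clec9a probe, well above background on 1 array only, gave 1.54. Xcr1 and Cd209a were not well above background. The main probe of Zbtb46 was not either, but its other probe was so on 1 array only, with a log2 ratio of -2.69. Cd209e was well above background with control EVs only, at least 1.46-fold higher. Of 8 B cell genes 4 were measured, with sums of 1177 and 1227 and log2 ratios of 0.41 for Blnk, 0.25 for Cd22 and -0.19 for Vpreb1. Another Cd22 probe, well above background on 1 array only, gave -0.05. The B cell genes Cd79a and Ms4a1 were not well above background, and Pax5 was so with control EVs only, at least 1.07-fold higher. Of 7 T and NK cell genes 4 were measured, with sums of 2040 and 1926. Log2 ratios were 0.32 for Cd3d, -0.17 for Cd4 and -0.10 for Lck, whose other probe gave 0.05. Cd8a and Ncr1 were not well above background, and Klrb1c was so with CML EVs only, at least 1.10-fold higher. The part of these cell types in the ratios of the TLR genes and Myd88 was not tested.

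The mouse has further TLRs, which recognize microbial products in endosomes. Tlr13, a receptor for bacterial ribosomal RNA, had 1563 with control EVs and 1846 with CML EVs, a log2 ratio of 0.24, but a second and dimmer probe gave 110 and 102, a log2 ratio of -0.12. Tlr12, which binds a profilin of parasites, had 340 and 382, a log2 ratio of 0.17. Tlr11 had 6.56 and 4.17 and was not well above background. The main probes of Tlr12 and Tlr13 were thus higher with CML EVs, and the direction of Tlr13 depended on the probe.

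The other genes of the pathway were taken from 8 lists by role, with 80 genes in all, of which 71 were measured on both arrays. With CML EVs 47 were higher and 24 lower, and their median log2 ratio was 0.06. In this set 1 gene was at least 1.5-fold higher and 1 at least 1.5-fold lower. Over all named genes 58.5% were well above background on both arrays. Of these, 52.0% were higher with CML EVs, 1.52% at least 1.5-fold higher and 1.18% at least 1.5-fold lower. The same shares stand beside the counts of each list. Co-receptors and chaperones bring ligands to TLRs or carry TLRs to their place in the cell, and 7 of 10 were higher and 3 lower, with a median of 0.11. Lbp, which carries lipopolysaccharide to CD14, had 305 and 526, or 1.72-fold higher, with a log2 ratio of 0.79. Cd14 and Ly96, which present lipopolysaccharide to TLR4, had log2 ratios of 0.08 and 0.01. Unc93b1, which escorts nucleic acid-sensing TLRs to endosomes, had 4976 and 5664, a log2 ratio of 0.19. The scavenger receptor gene Cd36 had a log2 ratio of -0.32, while Cd180, a TLR-like surface protein, had -0.18 on 1 probe and 0.34 on the other.

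Of 5 adaptor genes with a TIR domain or related to them, 3 were measured, and 2 were higher and 1 lower, with a median of 0.17. Ticam1, the adaptor of TLR3, had 412 and 493, a log2 ratio of 0.26. Tirap, which links MYD88 to TLR2 and TLR4, had 623 and 575, a log2 ratio of -0.11. Pik3ap1 had a log2 ratio of 0.17. Ticam2 and Sarm1 were not well above background. Of the kinases and ubiquitin ligases that act after MYD88, 12 of 18 measured genes were higher and 6 lower, with a median of 0.03. Irak4, Irak1 and Irak2, the kinases recruited by MYD88, had log2 ratios of 0.06, -0.10 and 0.14, and Traf6 had 0.07. Ikbke, an IRF-activating kinase, had 154 and 228, a log2 ratio of 0.57. Tab3 had -0.18 and Peli2 had 0.16, and Peli3 was not well above background. Another Peli2 probe, well above background on 1 array only, gave 0.58.

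Of 10 negative regulators 7 were higher and 3 lower, with a median of 0.08. Irak3, which blocks IRAK signaling, had 615 and 694, a log2 ratio of 0.18 that ran from 0.16 to 0.33 over its probes. Tnfaip3, the gene of the deubiquitinase A20 of NF-kB signaling, had 0.27. Cyld had 0.19, but its probes ran from -0.03 to 0.39. Il1rl1 had -0.27, but its probes ran from -0.42 to 0.18. Of 9 transcription factors 6 were higher and 3 lower, with a median of 0.02. Irf7, which MYD88 activates downstream of TLR7 and TLR9, had 25156 and 32428, a log2 ratio of 0.37. Rel had -0.21 and Irf5 had 0.14.

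Genes that TLR signaling induces did not move one way. Of 18 cytokine, chemokine and other target genes 14 were measured, and 8 were higher and 6 lower, with a median log2 ratio of 0.12. Ifnb1 and Cxcl2 had log2 ratios of 0.53 and 0.44, from signals of 27.6 and 39.9 and of 46.1 and 62.4. Ptgs2, which encodes an inducible cyclooxygenase, had 39.9 with control EVs and 25.4 with CML EVs, a log2 ratio of -0.65 and the 1 gene of all these lists at least 1.5-fold lower. Il1a, Il10 and Il12b were not well above background, and Cxcl1 was so with control EVs only, at 19.0 against 13.4, or at least 1.40-fold higher there. Of 6 genes listed as other receptors that use MYD88, 5 were measured, and 3 were higher and 2 lower, with a median of 0.15. This median was the value of Il1rap, whose other probe well above background gave -0.22. The list includes Il1r2, the gene of a decoy receptor that does not itself signal through MYD88. Il1r2 had the highest ratio of the list, so that the count and the median do not stand for MYD88-using receptors alone. Il1r1, the receptor for IL-1, had 426 and 297, a log2 ratio of -0.52, while the decoy receptor gene Il1r2 had 1878 and 2435, a log2 ratio of 0.37, and Il18rap had 0.20. Il1rl2 was not well above background.

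**Figure D4:**
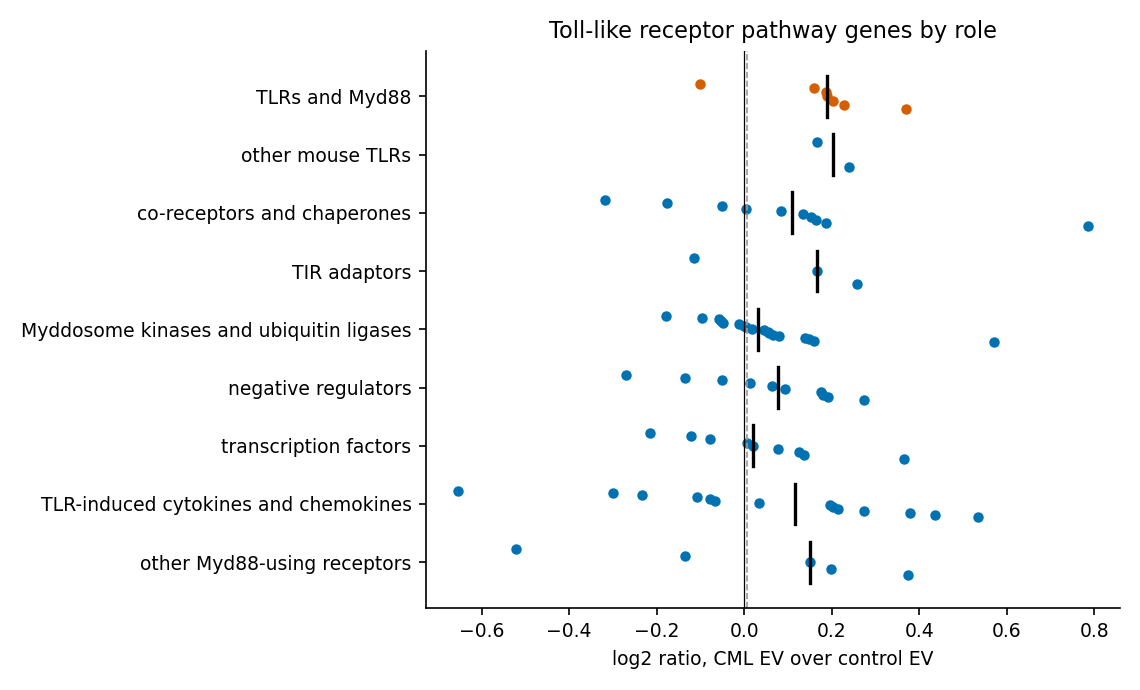
Log2 ratio, CML EV over control EV, of each gene well above background on both arrays, by role in the Toll-like receptor pathway, with the TLRs and Myd88 in orange, a black bar for the median of each group, and a dashed line for the median of all genes, 0.01. The TLRs and Myd88 have a median of 0.19, and the medians of the kinases and of the transcription factors, 0.03 and 0.02, lie close to that of all genes. Single genes of these 2 groups lie further away, such as Ikbke at 0.57, Irf7 at 0.37, Rel at -0.21 and Tab3 at -0.18. The group of other Myd88-using receptors includes the decoy receptor gene Il1r2.

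The direction of each measured member was the same under each way of processing that was tried. In 77 of 77 recomputed values, with 11 other settings for each of the 7 genes, the sign was the same as in the main setting. Part of this count carries no information. The deposited values, the outlier spots kept and the probe with the highest control EV value returned the main value for all 7 genes. The mean of all probes did so for Tlr2, Tlr6, Tlr9 and Myd88, which have 1 probe each. Scaling to the 75th percentile, the mean or the median adds the same constant to the log2 ratio of every gene. In these settings the constant was positive, so that no ratio above 0 could change its sign. The log2 ratio of Tlr6 ran from 0.37 to 0.44, that of Myd88 from 0.16 to 0.27 and that of Tlr4 from 0.06 to 0.26. These settings start from the same 2 arrays, so that they show nothing about other cultures.

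**Figure D5:**
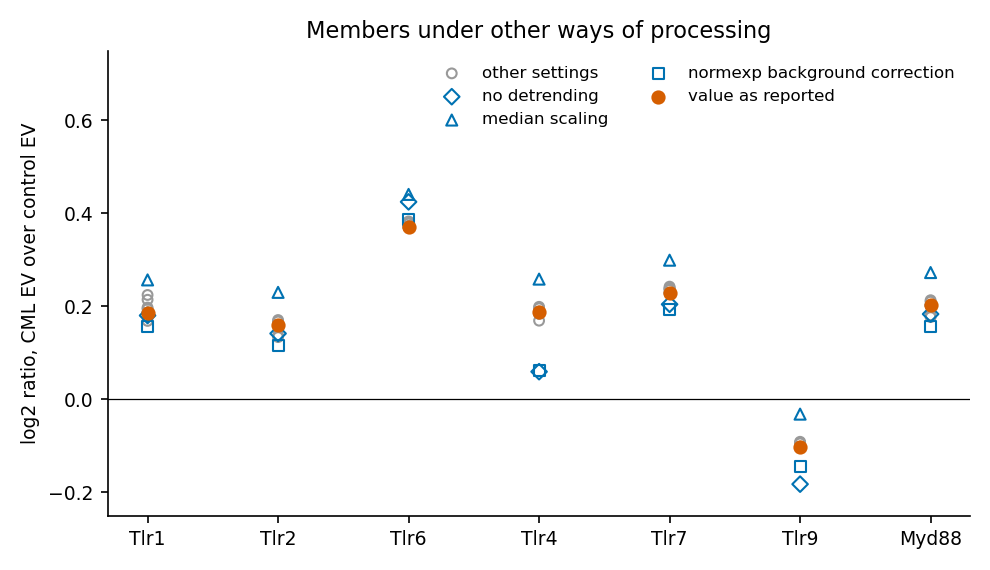
Log2 ratio, CML EV over control EV, of the 7 measured members as reported (orange) and under the other ways of processing, with scaling to the median, normexp background correction and no detrending marked. Tlr4 falls to 0.06 with normexp and with no detrending, and each gene stays on its side of 0.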

How the data were processed

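RNA of 1 culture per condition was measured on 1 one-color Agilent array each. The authors deposited scanner files from Agilent Feature Extraction, named with version 12.0.3.1 in the submitters' processing notes, which hold the background-subtracted and detrended intensity of each spot with its error and flags. Their deposited value table is the same intensity times 1 factor per array (0.942 and 0.947), not on a log2 scale, with medians of 22.2 and 21.2.

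Controls were dropped, as were spots that either array flagged as outliers (95 on the control EV array and 88 on the other). After the methods, 1 factor per array brought its mean to 2500 without the upper and lower 2%. Repeated spots were averaged as log2 values. Gene names came from the RefSeq accession of a probe and the GRCm38.p6 gene table, which gave a symbol for 32994 of 56604 probes. The array design refers to another assembly, so no probe coordinates are given. A gene with several probes was given by the one with the highest CML EV value, after the methods. Where a gene was well above background on 1 array only, its brighter signal was set against its dim signal or the lowest detected signal of the dim array, whichever was higher. The ratio step was tested on simulated data.

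Named genes were all members and the other TLRs with their probes, 11 core pathway genes, and the 3 measured genes with the largest absolute log2 ratio of each other list. Kit and the motifs were added to these, and 2 marker genes that entered the counts of their lists are not reported here by name. The members, lists and motifs were chosen with earlier results of these data known. With 1 array per condition no test across samples was made, and the number of arrays limits the precision. Alternatives changed the scaling, the background correction (normexp of limma 3.58.1, offset 50), the source of values, which probe stands for a gene, how dim probes and outliers are filtered, and the fold threshold. The loess fit (statsmodels 0.14.6), the spot error criterion and the setting with no detrending were chosen after seeing the data. Scripts ran under R 4.3.3 and Python 3.11.15 with pandas 2.3.3, numpy 2.4.6 and matplotlib 3.10.9.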

Additional observations from a re-analysis of the deposited data

How the results depend on the processing

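No paired analysis was possible because there is 1 array per group, and none could be left out. Of 214 recomputed values, 168 moved by less than the spread between spots at the same position of both arrays (for counts, stayed within 1.5 times). With the wider spread that ignores position, SDs of 0.052 and 0.19, this count was 184. Both counts include settings that returned the main values themselves, such as the deposited values. The narrower spread was kept, since a probe has the same position on both arrays.

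The count of members past 1.5-fold, 0, became 1 at a threshold of 25% higher, 1 with no filter on dim probes (Tlr5, not well above background) and 2 by the spot error. The count well above background, 7, was 9 by the flag for signals positive and significant against local background and 6 where all probes of a gene had to pass, and 7 in the other alternatives. Scaling to the median moved the median of all genes from 0.01 to 0.08 and raised each of these: the members' median to 0.26, Tlr2 to 0.23, Tlr4 to 0.26, Tlr6 to 0.44, Tlr7 to 0.30, Tlr9 to -0.0316, Myd88 to 0.27, other TLRs to 0.27, co-receptors to 0.18, adaptors to 0.24, kinases to 0.10, negative regulators to 0.15, transcription factors to 0.0897, cytokines to 0.19 and other receptors to 0.22. Relative to all genes, the members' shift stayed. Normexp gave 0.12 for Tlr2, 0.062 for Tlr4, 0.19 for Tlr7, -0.14 for Tlr9, 0.16 for Myd88, 0.25 for other TLRs, -0.0105 for kinases, 0.0293 for negative regulators and 0.11 for other receptors. No detrending gave 0.0597 for Tlr4, 0.42 for Tlr6, -0.18 for Tlr9, 0.27 for other TLRs, 0.21 for adaptors, 0.0433 for negative regulators, 0.15 for cytokines and 0.10 for other receptors. The mean of all probes gave 0.11 for other TLRs, -0.0474 for kinases, 0.0809 for transcription factors and, with the sign turned, -0.0355 for other receptors. The probe with the highest control EV value gave 0.0384 for negative regulators. Quantile normalization and the loess fit gave 0.21 and 0.23 for adaptors. No filter on dim probes gave 0.17 for other TLRs, 0.10 for other receptors and, with the sign turned, -0.0721 for cytokines, which had 0.0335 when 1 array above background sufficed. With the mean of all probes, the other receptors turned sign through Il1rap, whose probes well above background had 0.15 and -0.22. The cause of the other changes was not tested, beyond the genes, probes and spots each setting adds or leaves out.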
